A study of Mus musculus with 6 samples.

Results

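The 6 ADP-ribosylation factor genes of the mouse, Arf1, Arf2, Arf3, Arf4, Arf5 and Arf6, were taken by gene symbol, and all 6 were measured among 32348 gene identifiers. Only Arf3 hosted listed circular RNAs (circRNAs), closed rings of exons formed by back-splicing. The family was chosen by a measured value: linear reads at the Arf3 circles were higher after dihydrotestosterone (DHT) in an earlier look at these data. For that reason every difference of Arf3 between the groups is given as a description with no test, and tests are given for the other 5 genes.

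RNA came from tissue labelled hippocampus of 14-month-old male C57BL/6 mice. There were 3 libraries from mice injected under the skin once a day for 14 days with DHT, an androgen that aromatase does not convert to oestrogen. The other 3 libraries came from mice injected for the same time with medical corn oil, the vehicle. The animals carried no stated genetic change. Whether the libraries come from separate animals is not stated, and p-values therefore rest on the spread among the libraries, part of which may be technical. Markers went against the tissue label: of 10 genes that mark hippocampal fields, 3 had a mean over 1 FPKM (fragments per kilobase per M mapped fragments, where M is the prefix mega), Lct was at 0 in all libraries and Neurod6 in 5 of 6, while 8 of 9 striatal markers had a mean over 5 FPKM.

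Arf proteins are small GTPases that hold to membranes when loaded with GTP and let go after hydrolysing it to GDP. Guanine nucleotide exchange factors (GEFs) load them and GTPase-activating proteins (GAPs) switch them off, while the loaded form recruits coat proteins, clathrin adaptors and lipid-modifying enzymes. Arf1, Arf2 and Arf3 form class I and act mainly at the Golgi and on endosomes, Arf4 and Arf5 form class II, and Arf6 is the class III member of the plasma membrane. In neurons Arf6 is known for endosome recycling and for the actin of dendritic spines, and Arf1 for coat assembly at the Golgi.

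The sequences around the annotated starts are shown for the 3 most abundant members, because the deposited first exons tell which of several starts carried the RNA. Each is the RefSeq window from 250 bases before to 30 bases after the start, from the GRCm38.p6 table, read 5′ to 3′ on the strand of the gene. Capitals mark the letters found by search on both strands for 5 motifs: the GC box (GGGCGG), the half-site of the cyclic AMP response element (TGACG), the Golgi stress element (ACGTGGC), the E-box (CACGTG) and the half-site of the androgen response element (AGAACA). The Golgi stress element overlaps the cyclic AMP half-site in the Arf1 window, and both overlap the E-box in the Arf5 window, so there their capitals run together.
Arf1, chr11:59228238-59228517, minus strand: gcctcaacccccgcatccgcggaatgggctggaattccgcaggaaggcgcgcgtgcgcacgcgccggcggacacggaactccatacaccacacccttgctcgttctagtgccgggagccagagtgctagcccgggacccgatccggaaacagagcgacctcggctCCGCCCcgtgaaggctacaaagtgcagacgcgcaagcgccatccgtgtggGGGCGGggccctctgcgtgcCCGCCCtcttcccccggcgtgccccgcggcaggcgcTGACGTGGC
Arf3, chr15:98763089-98763368, minus strand: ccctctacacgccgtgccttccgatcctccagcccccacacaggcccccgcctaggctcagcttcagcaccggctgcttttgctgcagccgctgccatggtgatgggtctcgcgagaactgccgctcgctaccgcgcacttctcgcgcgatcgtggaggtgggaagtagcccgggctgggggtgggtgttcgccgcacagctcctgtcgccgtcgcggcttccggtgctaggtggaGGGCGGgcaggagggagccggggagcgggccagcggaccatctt
Arf5, chr6:28423354-28423633, plus strand: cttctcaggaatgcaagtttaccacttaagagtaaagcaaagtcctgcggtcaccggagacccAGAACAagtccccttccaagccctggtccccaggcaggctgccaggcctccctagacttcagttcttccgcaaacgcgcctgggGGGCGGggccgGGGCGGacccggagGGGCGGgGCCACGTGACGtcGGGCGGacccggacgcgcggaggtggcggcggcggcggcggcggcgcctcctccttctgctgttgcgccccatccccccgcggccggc
The table held 8 windows for 5 members, and Arf6 had none. The windows of Arf1, of Arf2 and of Arf3 are overlapping pairs, so the same site can count in both. All 8 windows held the GC box, the site of Sp1-type factors, which was present in 34.7% of 32851 windows of the same length. Their GC content was 57.9% to 75%, against a median of 52.5% over all windows. The Golgi stress element was found in both Arf1 windows, at a site they share, and in the Arf5 window. It was in 2.39% of all windows, and the Arf2, Arf3 and Arf4 windows did not hold these letters. The cyclic AMP half-site was in the windows of Arf1, Arf4 and Arf5 and in 19.9% of all windows. An E-box was present in the Arf5 window (6.79% of all windows). The androgen half-site occurred once in the Arf5 window and in no other member window, against 17.8% of all windows, and the full androgen site, the half-site as an inverted repeat with 3 bases between, was in no member window and in 0.0091% of all windows. These matches describe the letters only.

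Levels of the 6 genes spanned about an order of magnitude. A gene value here is the larger of the summed first-exon and summed last-exon FPKM, so levels can be compared between genes per length. Over the 6 libraries Arf3 (mean 55.7 FPKM) and Arf1 (47.2) were highest, ranked 176 and 242 of 11368 genes averaging 0.5 FPKM or more. Arf5 followed at 21.2 FPKM, then Arf4 at 6.81, Arf2 at 5.61 and Arf6 at 5.29, against a median of 3.77 FPKM over those genes. Arf3 was above Arf1 in 3 of 6 libraries only, so this pair was not ordered beyond its spread, and Arf2 was above Arf6 in 4 of 6. The steps from Arf1 to Arf5, from Arf5 to Arf4 and from Arf4 to Arf2 held in 6 of 6 libraries with ranges that did not overlap. RNA of whole tissue was measured, so more cells of a type and more RNA per cell cannot be told apart in any of these values. Arf1 and Arf3 encode closely similar proteins, and no source used here gives the counting of reads shared between such copies.

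**Figure D1:**
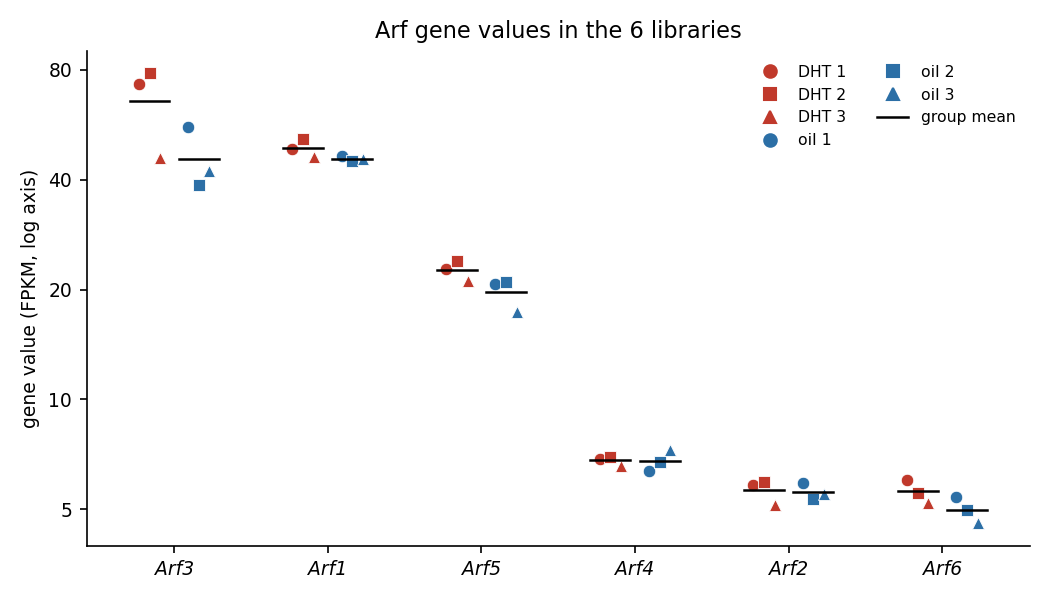
Gene values in FPKM (log axis) of the 6 Arf genes, ordered by mean, with 1 point per library (red DHT, blue oil, shape by replicate) and a line at each group mean. Arf3 runs from 38.8 to 78.3 FPKM, while Arf1 stays between 45.2 and 51.6 and Arf4 between 6.38 and 7.27.

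Arf3, the class I member that shares the trans-Golgi and recycling endosomes with Arf1, was the most variable of the 6. It lies on chromosome 15 (98737624 to 98763118, minus strand, GRCm38), and its gene value was 73.1, 78.3 and 45.8 FPKM in the DHT libraries (1 to 3) and 55.8, 38.8 and 42.2 in the oil ones (1 to 3). DHT libraries 1 and 2 were above all oil libraries, and DHT library 3 was below oil library 1, so the groups overlapped. The means were 65.7 ± 17.5 and 45.6 ± 9.01 FPKM (SD, n = 3 per group), a difference of 0.50 on the log2 scale of FPKM + 0.5. It ranged from 0.36 without DHT library 2 to 0.74 without DHT library 3, and was 0.44 with each library centred on its median. With last-exon sums only it turned to -2.30. There the last exon listed on its strand, 49.9 kb beyond the RefSeq end, was at 0 in 5 libraries and at 40.2 FPKM in oil library 3. The highest library was 2.02 times the lowest for Arf3, and at most 1.38 times for the other 5 genes.

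Linear reads at the Arf3 circles, the measure behind the choice of this family, did not overlap between the groups. At the longer of 2 circles, on chromosome 15 from 98740337 to 98742829, the deposited lists counted 6974, 6967 and 5500 linear reads in DHT libraries and 5025, 4687 and 4267 after oil. Per M mapped reads these were 39.3, 41.8 and 38.4 against 31.7, 30.4 and 27.3, so every DHT library stood above every oil library. The means were 39.8 ± 1.74 and 29.8 ± 2.25 (SD, n = 3 per group), a ratio of 1.34. The groups failed to overlap with DHT higher at 10.2% of the 1581 loci listed in all 6 libraries, and edgeR called 0.759% of them higher. Nothing is read from either for Arf3. Its difference after scaling in edgeR was 0.40 (log2), from 0.36 to 0.43 when each library was left out in turn. These values too are a description only, since the difference chose the family. This locus had the second highest mean number of linear reads of the 1581, at 5570, against a median of 222.5. The second circle, from 98740421 to 98742829, had 6590 and 5153 linear reads in DHT libraries 1 and 3 and 4861, 4747 and 4287 after oil, and it was not listed in DHT library 2. The circles share an end and nearly all of their span, and how far their linear reads are the same reads was not tested.

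DHT library 3 shows where the measures part. Its Arf3 gene value was the lowest of the DHT group at 45.8 FPKM, 1.71 times under the highest, but its linear reads per M mapped reads were within 1.09 times of the highest DHT library. Over the 6 libraries the linear reads spanned 1.53 times.

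**Figure D2:**
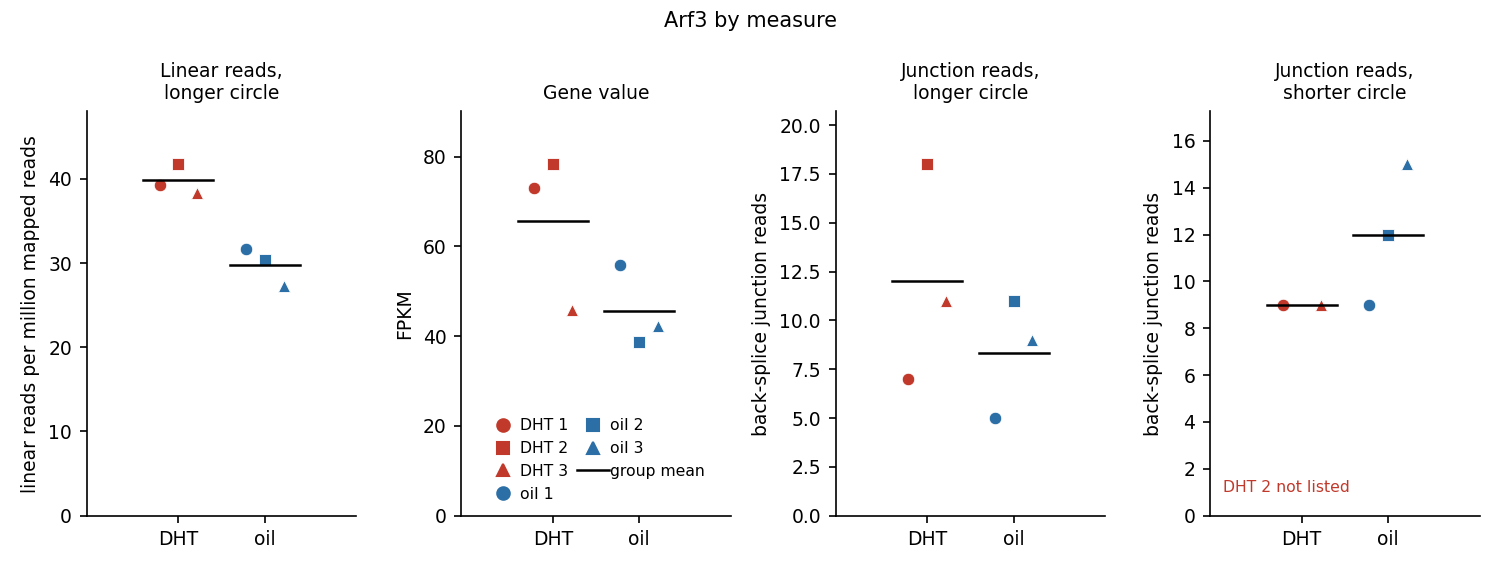
Arf3 in 4 panels, each with its own axis from 0: linear reads per M mapped reads at the longer circle, gene value in FPKM, and junction reads of the longer and the shorter circle, with 1 point per library and lines at group means. In the shorter-circle panel the DHT mean is over the 2 libraries that list it. The linear reads separate the groups (38.4 to 41.8 against 27.3 to 31.7) and the other panels do not.

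The Arf3 circles were rare and used an edge inside an exon. Both begin at 98742829, the upstream edge of the second exon (98742593 to 98742829, 237 bases), which the deposited events list as a cassette exon. Each ends within the exon whose upstream edge is at 98740494, after 158 of its bases in the longer circle and after 74 in the shorter, 84 bases apart. The longer circle spans 2493 bases of the genome and had 7, 18 and 11 junction reads in DHT libraries and 5, 11 and 9 after oil, 61 in all. The shorter spans 2409 bases and had 9 and 9 junction reads in DHT libraries 1 and 3 and 9, 12 and 15 after oil, 54 in all. It was not listed in DHT library 2. The lists start at 2 reads, but the caller and its filters are not named, so its reads there are not known.

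**Figure D3:**
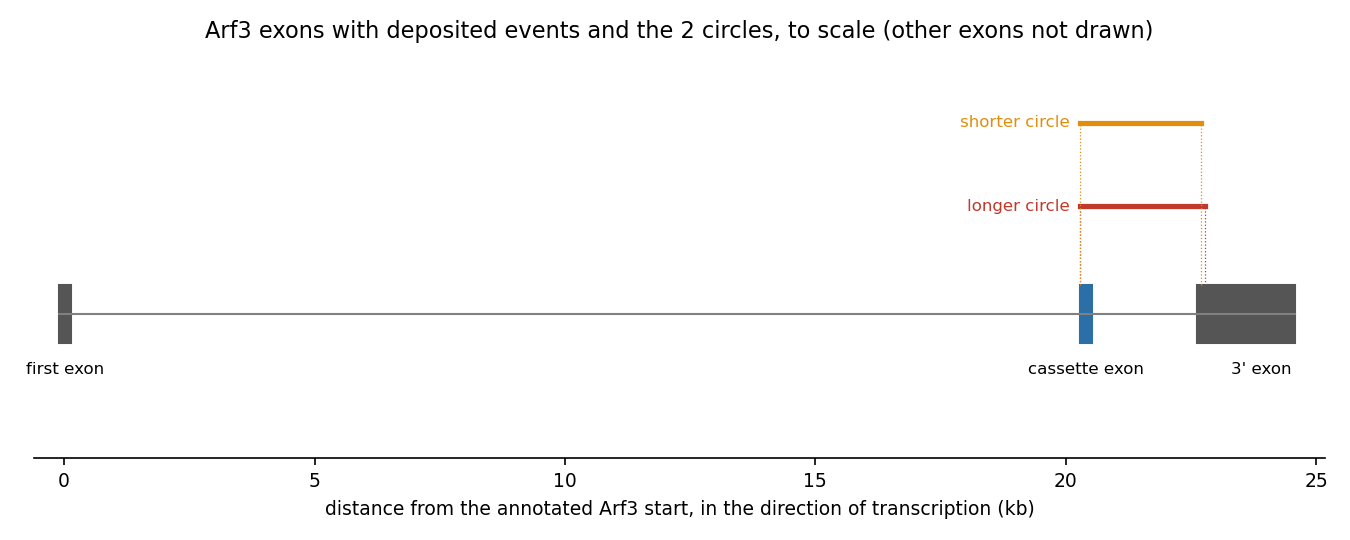
The Arf3 exons that have deposited events (boxes) and the 2 circles (bars), drawn to scale by distance in kb from the annotated start in the direction of transcription, with other exons left out. Both circles start at the cassette exon and end inside the 3′ exon, 84 bases apart.

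The junction reads of the longer circle overlapped between the groups, and so did those of the shorter. The log2 difference in edgeR was 0.41 for the longer circle, but it was 0.00460 without DHT library 2, 0.13 without oil library 1, 0.72 without DHT library 1 and 0.67 without oil library 2. For the shorter circle it was -1.11 with the unlisted DHT library 2 taken as 0, and -0.53 without that library. Among all 2524 circRNAs with at least 20 junction reads, edgeR called 0 (0%), the groups did not overlap with DHT higher in 5.86%, and 79 had an unadjusted p under 0.05 in edgeR and 73 in DESeq2, which also called 0. Junction reads of the longer circle made up 0.0994% of its junction plus linear reads in oil library 1 (95% Wilson interval 0.0425 to 0.233%) and 0.258% in DHT library 2 (0.163 to 0.407%), the lowest and highest of the 6, and these intervals overlap. The intervals cover counting error only.

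On the Arf3 strand the listed first-exon signal came from the same exon in all libraries, while the listed 3′ forms differed. The first exon from 98762980 to 98763214, which starts 96 bases upstream of the RefSeq start of the window shown above, held 73.1, 78.3 and 45.8 FPKM after DHT and 55.6, 38.8 and 42.2 after oil. The alternative first exon from 98762725 to 98762992, at the other RefSeq start, was listed at 0 in all 6 libraries. The cassette exon was included almost throughout: the skipping form took 0.000732% to 0.0760% of both forms. The 7 forms of the 3′ exon with alternative ends were listed at 0 in 5 libraries and summed to 40.2 FPKM in oil library 3. The same library alone listed 40.2 FPKM for a last exon from 98687694 to 98687766, which lies 49.9 kb beyond the RefSeq end of Arf3. The 2 values are equal and are not counted as 2 separate observations. Linear reads at the longer circle, which ends inside the 3′ exon with alternative ends, were 4267 to 6974 in all 6 libraries. The zeros are therefore not read as absence of that exon, and their cause was not tested. A short locus on the opposite strand under the Arf3 identifier held 0.227 FPKM in oil library 1 and was listed at 0 in the other libraries.

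Arf1, which recruits the COPI coat and clathrin adaptors at the Golgi, was nearly level. Its gene value was 48.5, 51.6 and 46.1 FPKM after DHT and 46.3, 45.2 and 45.6 after oil. DHT libraries 1 and 2 were above all oil libraries and DHT library 3 was inside their range. The log2 difference was 0.09 (SE 0.09, limma adjusted p = 0.804), and its 95% interval ran from -0.12 to 0.30. It was 0.03 with centred libraries and 0.05 without DHT library 2. The first exon from 59228173 to 59228270, which starts 3 bases from the RefSeq start of the window shown, carried at least 96.4% of the first-exon signal. The other, from 59227876 to 59228162, carried 0.000832%, 3.11% and 3.65% in DHT libraries and 1.56%, 1.40% and 3.09% after oil, with no separation of the groups. The annotated Arf1 gene lies on chromosome 11 from 59211412 to 59228267.

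Arf2, the class I member that rodents keep and humans have lost, lies on the same chromosome (103966725 to 103985350). Its gene value was 5.82, 5.94 and 5.14 FPKM after DHT and 5.91, 5.33 and 5.51 after oil, so the groups overlapped. The log2 difference was 0.01 (SE 0.11, limma adjusted p = 0.986, 95% interval -0.24 to 0.26). It became -0.05 with each library centred on its median. Of its 4 first exons, the one from 103966739 to 103966827 carried 92.0% to 96.9% of the signal. An exon from 103979589 to 103979757 was used in DHT library 2 only, where it held 0.347 FPKM.

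The class II genes are Arf4 and Arf5, and the difference between their responses was not tested. Arf4, known for carrying cargo to the cilium, lies on chromosome 14 (26638134 to 26656842) and stood at 6.89, 6.97 and 6.58 FPKM after DHT and 6.38, 6.76 and 7.27 after oil. All DHT values were inside the oil range, and the log2 difference was 0.00368 (SE 0.10, limma adjusted p = 0.994, 95% interval -0.23 to 0.24), or -0.06 with centred libraries. A single first exon (26638074 to 26638486) held 100% of its first-exon signal in all libraries, and a second last exon (26664685 to 26665084) was listed at 0 throughout. Arf5, on chromosome 6 (28423604 to 28426602), stood at 22.8, 23.9 and 21.2 FPKM after DHT and 20.7, 21.0 and 17.4 after oil. It was the 1 member whose gene values did not overlap between the groups, higher in DHT. Among all 11368 genes tested, 12% did the same. The log2 difference of Arf5 was 0.20 (SE 0.11, limma adjusted p = 0.694, 95% interval -0.07 to 0.47), or 0.14 with centred libraries. It lay between 0.11 and 0.25 when 1 library was left out.

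Arf6, the plasma membrane member, lies on chromosome 12 (69372150 to 69375980). Its gene value was 6.02, 5.56 and 5.21 FPKM after DHT and 5.40, 4.99 and 4.58 after oil. DHT libraries 1 and 2 were above all oil libraries, and DHT library 3 was below oil library 1. The log2 difference was 0.15 (SE 0.11, limma adjusted p = 0.747, 95% interval -0.11 to 0.41), or 0.09 with centred libraries.

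None of the 5 genes tested passed limma at an adjusted p of 0.05, a threshold that 0.0176% of all 11368 genes passed and 0.0088% passed with DHT higher, and their unadjusted p were all above 0.05. All 5 had a point estimate above 0 (Arf2 only 0.01 and Arf4 0.00368), as had 63.6% of all genes tested. Arf3 is left out of this count because its difference chose the family. The median log2 difference over all genes was 0.07, and summed gene values were 94871 to 96063 FPKM after DHT and 87148 to 89596 after oil. With centred libraries Arf2 and Arf4 turned below 0. Of 41 exon and splicing events deposited for the family, 22 had a mean of at least 0.5 FPKM. Of these, 14 belong to the 5 genes tested, and limma called 0 of the 14 (lowest adjusted p = 0.815), with 0.0481% of 74779 events called, 0.0187% with DHT higher, and 9.57% not overlapping with DHT higher.

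**Figure D4:**
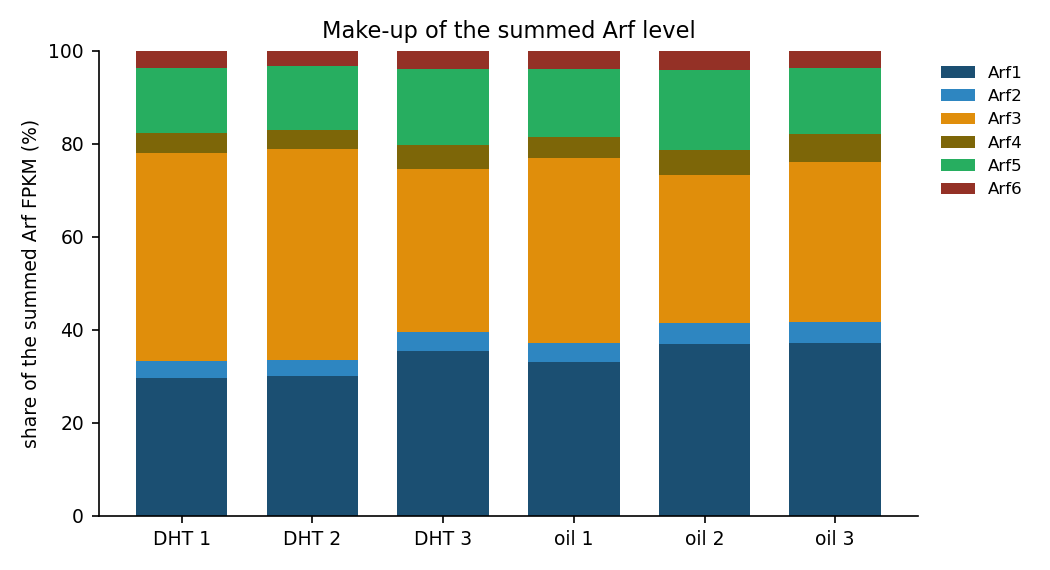
Share of each Arf gene in the summed Arf FPKM of each library (stacked bars, percent). Arf3 takes 44.8% and 45.4% in DHT libraries 1 and 2 and 31.8% to 39.7% elsewhere, and the other shares shrink with it because the bars add to 100%.

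The summed Arf level was 163.1, 172.4 and 130.0 FPKM after DHT and 140.5, 122.0 and 122.5 after oil, and DHT library 3 lay below oil library 1. Arf3 and Arf1 together made most of it in every library. Arf3 took 44.8%, 45.4% and 35.2% in DHT libraries and 39.7%, 31.8% and 34.4% after oil. Arf1 took 29.7%, 29.96% and 35.5% against 33.0%, 37.0% and 37.2%. In 3 libraries, DHT libraries 1 and 2 and oil library 1, Arf3 was the largest share, and in the other 3 Arf1 was.

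The genes whose pattern over the 6 libraries was most like that of each member were found by the mean absolute difference of log2 values, each gene set to its own mean, among 4539 genes averaging 5 FPKM or more. For Arf3 they were Pgbd5 (0.11), Mfsd4a (0.11) and Fam168b (0.12). Pgbd5 had 24.1, 21.9 and 12.4 FPKM after DHT and 17.6, 12.5 and 14.0 after oil. Fam168b had 36.6, 47.9 and 21.9 against 29.0, 18.9 and 24.7. Both were high in DHT libraries 1 and 2 and, among oil libraries, highest in library 1, as Arf3 was. They were chosen for this likeness, so it is a description only and no support for a link with Arf3. For the steadier members the closest genes were Trim28 (0.0158 from Arf1), Napb (0.0144 from Arf2), Atp5f1 (0.0132 from Arf4), Nlgn2 (0.0269 from Arf5) and Rangap1 (0.0168 from Arf6). The other genes chosen were Gpr158 and Lrrc59 for Arf1, Ppia and Tnfrsf19 for Arf2, Ajap1 and Csnk1e for Arf4, Chchd6 and Saraf for Arf5, and Emc3 and Cs for Arf6.

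The genes that act with the Arf proteins gave no call either. Of 98 such genes in 5 lists, 87 were tested and limma called 0. An unadjusted p under 0.05 was found for 7 of the 87, and for 834 of all 11368 genes. Their median log2 difference was 0.06, against 0.07 over all genes, and 57 of 87 (65.5%) were above 0, against 63.6%. With centred libraries 42 of 87 were above 0 (48.3%, against 51.4% of all genes). In 12 of the 87 the groups did not overlap with DHT higher, against 1362 of all 11368 genes (12%), and in 5 with DHT lower, against 358 of all genes.

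Arf GEFs, which load GTP, numbered 14 tested, 9 above and 5 below 0, with a median of 0.03, beside 63.6% of all genes above 0. With centred libraries 6 were above and 8 below, and the median turned to -0.03. The synaptic Arf6 GEF gene Iqsec1 stood at 36.8 ± 0.814 FPKM after DHT and 27.99 ± 11.7 after oil, where oil library 2 held 14.5 and the other oil libraries 35.5 and 34.0 (SD, n = 3 per group, limma adjusted p = 0.721). Every DHT value was above every oil value, by a small margin from the 2 higher oil libraries. Psd and Psd3, GEF genes for Arf6, were at 32.4 ± 7.69 against 31.0 ± 2.60 and at 27.6 ± 5.34 against 28.4 ± 0.967 FPKM (limma adjusted p = 0.967 and 0.937).

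Arf GAPs, which switch Arf proteins off, numbered 20 tested, 14 above and 6 below 0, with a median of 0.10 (11 and 9 with centred libraries, median 0.04). Agap2 had 78.6, 78.2 and 76.3 FPKM after DHT and 66.4, 60.9 and 65.2 after oil. Git1, a synaptic scaffold as well as an Arf GAP, had 34.8, 36.7 and 35.7 against 30.7, 28.3 and 27.5. In both genes every DHT library was above every oil library, with log2 differences of 0.28 and 0.31 (SE 0.09 each, limma adjusted p = 0.652 for both). Agap3 was at 28.9 ± 4.01 against 28.5 ± 0.448 (SD, n = 3 per group).

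The COPI coatomer, the coat that Arf1 recruits to the Golgi, had 9 of 9 genes tested, 6 above and 3 below 0, with a median of 0.12 (the same counts with centred libraries, median 0.06). Copg1 was at 28.4 ± 1.21 against 26.3 ± 0.835 FPKM and Copa at 15.0 ± 1.86 against 13.1 ± 1.38 (SD, n = 3 per group). Copg2, the paralog gene of Copg1, was at 16.7, 13.05 and 5.99 FPKM after DHT and 21.1, 24.9 and 15.5 after oil. DHT library 1 and oil library 3 overlapped (log2 difference -0.85, SE 0.37, limma adjusted p = 0.658).

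Effectors and adaptors numbered 27 tested, 18 above and 9 below 0, with a median of 0.06. With centred libraries 13 were above and 14 below, and the median turned to -0.00396. Pip5k1c, the main neuronal kinase making PtdIns(4,5)P2 and an Arf6 effector, was at 56.3 ± 12.1 against 46.4 ± 9.97 FPKM. The clathrin adaptor genes Ap1s1 and Ap1b1 were at 21.6 ± 1.13 against 19.4 ± 0.471 and at 17.45 ± 6.27 against 17.9 ± 4.94 (SD, n = 3 per group). The groups did not overlap for Ap1s1 and overlapped for Pip5k1c and Ap1b1.

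Arf-like and Sar relatives numbered 17 tested, 10 above and 7 below 0, with a median of 0.02. With centred libraries 6 were above and 11 below, and the median turned to -0.04. Arl8a, which links lysosomes and synaptic vesicle precursors to kinesin, had 28.9, 32.6 and 32.4 FPKM after DHT and 27.2, 26.2 and 21.9 after oil. The groups did not overlap (log2 difference 0.32, SE 0.12, limma adjusted p = 0.658). Its close relative Arl8b was at 17.8 ± 0.517 against 17.7 ± 1.007 FPKM, and the Golgi GTPase gene Arl1 at 13.2 ± 0.878 against 13.8 ± 0.806 (SD, n = 3 per group). The lowest log2 difference of all 5 lists (-1.06), singled out after the values were seen, was that of the ciliary gene Arl3, at 4.76, 5.25 and 6.12 against 10.3, 12.4 and 12.5 FPKM (limma adjusted p = 0.397).

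**Figure D5:**
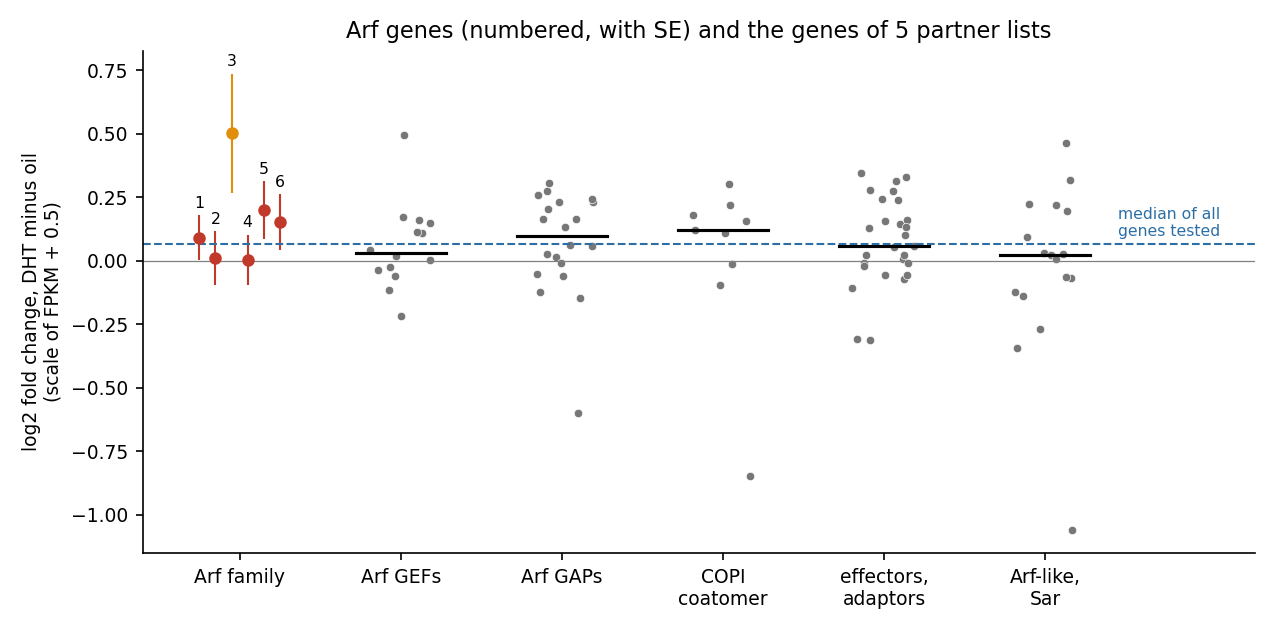
Log2 difference, DHT minus oil, on the scale of FPKM + 0.5. Numbered points are Arf1 to Arf6 with their SE (Arf3, described without a test, in orange), grey points are the tested genes of 5 partner lists, black lines are list medians (0.02 to 0.12) and the dashed line is the median of all genes (0.07).

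Circles were also listed for the partner genes. Arf GEF genes hosted 31 listed circles in 10 of 15 genes, Arf GAP genes 30 in 10 of 23 and effector genes 29 in 14 of 29. COPI genes hosted 5 circles in 3 of 9 genes and Arf-like and Sar genes 3 in 3 of 22, beside 2 circles in 1 of 6 Arf genes. The most abundant circle of the GEF list, singled out by its reads, was one of Arfgef2 (chromosome 2, 166834471 to 166836457), a GEF gene for Golgi and endosomal Arf proteins. It had 32, 35 and 30 junction reads in DHT libraries and 33, 25 and 20 after oil. A circle of Agap1 (chromosome 1, 89627761 to 89634294) led the GAP list with 16, 18 and 14 against 15, 6 and 19. Of 19 partner circles with at least 20 reads, 0 were called by edgeR (1 with an unadjusted p under 0.05) or DESeq2 (2). Linear reads could be compared at 13 partner loci. There 0 were called by edgeR (1 with an unadjusted p under 0.05) or DESeq2 (0). In the same comparison edgeR called 0.886% of all 1581 loci.

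At the Arfgef2 circle the linear reads per M mapped reads were 2.18, 1.96 and 1.96 in DHT libraries and 2.15, 1.79 and 1.503 after oil (log2 difference 0.14, SE 0.11, edgeR adjusted p = 0.631). At the Agap1 circle they were 5.76, 6.299 and 5.92 against 5.94, 5.36 and 5.56 (log2 difference 0.07, SE 0.08, edgeR adjusted p = 0.787). At both the groups overlapped. They separated in none of the 13 partner loci, and at 16.4% of all 1581 loci. The 13 loci lie in only 8 host genes, several in Psd3 with shared ends, so nothing is read from that difference.

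The libraries held 143.3 to 177.3 M mapped reads and 43512 to 55325 junction reads each. Summed over each of 7 lists, markers of the cell types that the tissue could hold overlapped between the groups. Their summed levels were 432 to 648 FPKM after DHT and 539 to 632 after oil for 3 matched neuronal genes, 71.3 to 112 and 87.7 to 108 for 5 astrocyte genes and 337 to 409 and 278 to 350 for 4 oligodendrocyte genes. For 5 microglial genes they were 12.1 to 15.3 and 10.9 to 15.4, and for 4 endothelial genes 11.2 to 11.97 and 9.03 to 12.1. DHT library 1 had the lowest neuronal sum and the second highest Arf3 value. In that library Snap25 was the lowest of all libraries (150 FPKM), while Syt1 (143) and Map2 (139) were not. The part of cell makeup in the Arf3 values was not tested. The summed hippocampal field markers were at 11.0 to 33.0 and 13.7 to 29.2. The striatal sums were 185 to 349 FPKM after DHT and 266 to 297 after oil. Single markers did not all overlap. Map2, Aldh1l1, Cdh5, Tek and Drd2 separated the groups with DHT higher, and Gja1 with DHT lower. Among all genes tested, the groups did not overlap in 15.1%, either direction.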

How the data were processed

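Gene members and lists were chosen with earlier results of these data known. For each circRNA the authors deposited counts of back-splice junction reads and of linear reads, listed from 2 junction reads up. The deposited score is SRPBM (junction reads scaled to mapped reads) in whole numbers, per the labels' protocols and the values, and served only to work out mapped reads (100% of scores reproduced). The deposited FPKM belong to 315379 exon and splicing events (290713 distinct) rather than genes, per the file headers. The submitters' processing notes name HISAT2 2.0.1, BWA, cutadapt, bcl2fastq 2.17.1.14 and build mm9, with no roles. For the circRNA caller, the assembler, the FPKM tool and the counting of linear reads, names were not given in the sources used here. Of circRNAs with a host in the RefSeq table, 99.8% overlapped that gene in GRCm38, so coordinates are read as GRCm38.

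A gene value was the larger of first-exon and last-exon FPKM sums of a locus, added over loci of one identifier. Values as log2(FPKM + 0.5) of genes or events averaging 0.5 FPKM or more went into limma 3.58.1 (trend, R 4.3.3), whose fold changes are on this scale and understate low genes. Junction reads (at least 20 in all) and linear reads (circRNAs listed in all 6 libraries) went as deposited into edgeR 4.0.16 (quasi-likelihood, TMM). A circRNA unlisted in a library was taken to have no junction reads there. DESeq2 1.42.0 was the alternative. P-values were adjusted by Benjamini-Hochberg over all features of a fit, at 0.05. The methods were tested on simulated data. Replicate pairs were not duplicates (chi-square over its degrees of freedom 2.22 to 3.79 for circRNAs with at least 20 reads). Named were all members, the 3 most abundant genes of each list, any called gene, and the 3 genes most like each member. Python 3.11.15, pandas 2.3.3, numpy 2.4.6, scipy 1.17.1 and matplotlib 3.10.9 were used.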

Additional observations from a re-analysis of the deposited data

How the results depend on the processing

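The Arf1, Arf5 and Arf6 gene values kept their direction and stayed uncalled in all 14 alternatives each (limma adjusted p from 0.691 to 0.956, 0.517 to 0.855 and 0.611 to 0.886). Arf2 changed sign with centred libraries (-0.0508) and without DHT library 1 (-0.0124), DHT library 2 (-0.0257) or oil library 2 (-0.02; highest 0.0697 without DHT library 3), and Arf4 with centred libraries (-0.0577) and without DHT library 1 (-0.0036), DHT library 2 (-0.0121) or oil library 1 (-0.0386; highest 0.0495 without oil library 3). With last-exon sums only the Arf3 value became -2.30. The last exon listed on its strand, 49.9 kb beyond the RefSeq end of Arf3, was at 0 in 5 libraries. The linear reads of Arf3 stayed between 0.36 and 0.43 in 9 alternatives. This difference chose the family, so its steadiness is a description only and no support for it.

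Counts over all features moved more. Gene calls of limma, 2 in all, were 1 with a pseudocount of 0.1 and 1 with the largest single event, 0 with at least 5 FPKM (487 at an unadjusted p under 0.05), first-exon sums only (825) or last-exon sums only (627), and 0 to 4 with 1 library left out (4 without DHT 2, 0 without DHT 1, DHT 3, oil 1 or oil 2). Event calls, 36 in all, were 3 without a filter, 10 with at least 5 FPKM and 18 to 33 with 1 library left out (18 without oil 1, 19 without DHT 1). Linear read calls of edgeR, 14 in all, were 23 with mapped reads as library size and 5 to 19 with 1 library left out (5 without oil 3, 7 without oil 1 or oil 2). Junction read calls, 0 in all, were 6 with at least 6 reads, 5 without a filter and 0 to 1 with 1 library left out (1 without DHT 2). The cause was not tested. The smaller number of junction reads of the Arf3 circles limits what can be seen. No paired analysis was possible because the labels give the groups no shared replicate numbers, and replicates are numbered 1 to 3 for naming only.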
